A study of Mus musculus with 15 samples.

Results

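The 38 genes described here encode assembly factors of the small ribosomal subunit, which are proteins of the small subunit processome and of the pre-40S particle. They were chosen by name as members of that class, and each symbol was then looked up among the 23845 genes of the deposited expression files. All 38 were found, and all 38 passed the low-count filter that kept 14335 genes in all. Poly(A) RNA was sequenced from E14 cells, a mouse embryonic stem cell line, in 15 libraries that form 5 groups of 3 biological replicates. Ddx10KD, Ddx24KD, Ddx27KD and Ddx54KD cells had received small interfering RNA (siRNA) against the DEAD-box RNA helicase named, and EGFPKD cells, the control, siRNA against EGFP, a fluorescent protein. Every group, EGFPKD included, grew on 0.2% gelatin, took up 400 ng of siRNA with 4 µL of Lipofectamine over 16 h and was harvested at 48 h. The depletion was therefore transient, partial and made in 1 cell line, and the 4 knockdown comparisons share their 3 control libraries.

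Small subunits are built in the nucleolus on the nascent pre-ribosomal RNA. The UTP-A complex binds the 5′ end of that transcript, UTP-B and the U3 small nucleolar ribonucleoprotein (snoRNP) follow, and the MPP10 complex and many single factors complete the processome, which folds the 18S region and allows the first cleavages. Once the processome is taken apart, pre-40S factors escort the particle through nuclear export and the last cleavage of 18S rRNA. In yeast the counterpart of Ddx10 acts in the small subunit pathway, and the counterparts of Ddx24, Ddx27 and Ddx54 act in the large subunit pathway.

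Libraries held 26836946 to 27708782 expected counts, the authors' estimated reads per gene. The 4 targeted transcripts were at 18.5% to 30.8% of their EGFPKD mean, each in its own knockdown. Summed over 10 embryonic stem cell markers, libraries held 7863 to 8263 TPM (transcript abundance per length, scaled to one sum per library) in the knockdowns and 8072 to 8228 TPM in EGFPKD. Summed levels of 8 fibroblast markers were 11.8 to 17.9 TPM in the knockdowns and 18.7 to 26.6 TPM in EGFPKD. Of these 8 markers, 6 averaged under 1 TPM, and Thy1, at a mean of 14.4 TPM over all libraries, led the sum. Trophoblast markers summed to 4.99 to 11.2 TPM in the knockdowns and 5.3 to 9.2 TPM in EGFPKD, and primitive endoderm markers to 3.27 to 7.93 TPM in the knockdowns and 3.11 to 4.63 TPM in EGFPKD. Neural markers, led by the tubulin Tubb3, summed to 96.4 to 136 TPM in the knockdowns and 122 to 160 TPM in EGFPKD. No marker was at 0 in all libraries. Whether such cells were present, and their part in the values below, was not tested. In bulk RNA, fewer cells of a type and less RNA per cell cannot be told apart. Replicate 2 of Ddx24KD and replicate 2 of Ddx54KD lay farthest out on the second principal component of all genes, at -19.7 and -17.0, where the other 13 libraries lay between -10.5 and 13.9. Replicate 2 of Ddx27KD, EGFPKD and Ddx10KD came next at this end, at -10.5, -9.20 and -9.16. The component thus set replicate 2 of every group apart from replicates 1 and 3.

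Messages for several small subunit assembly factors fell slightly when the helicases were depleted, and a few rose. Noc4l, Pno1, Utp3, Imp4 and Bms1 fell by 0.22 to 0.33 on the log2 scale in the mean of the 4 knockdowns, whereas Utp20, Pwp2, Rrp36 and Nat10 rose by 0.10 to 0.36. Of 38 members, 14 were called lower and 4 higher in this comparison of the mean of the knockdowns with EGFPKD, where a call is an adjusted p under 0.05 in the edgeR quasi-likelihood test over all 14335 genes. Over all genes tested, 19.1% were called lower and 19.6% higher (38.7% in all), beside 36.8% and 10.5% of the members. These shares compare genes of unlike precision, since the median SE was 0.04 over the members and 0.08 over all genes. The median size of the change, whatever its sign, was 0.11 over the members and 0.18 over all genes. The median log2 change was -0.09 over the members and 0.00 over all genes, 29 of the 38 members lay below zero, and no member moved by more than 0.36. With the replicate number as a block in the same test, 20 members were called lower and 6 higher, where 25.2% of all genes were lower and 25.9% higher. The block added 8 calls, of Utp15, Wdr75, Heatr1, Tbl3, Mphosph10 and Wdr46 lower and of Tsr1 and Rrp12 higher. Without replicate 2 of Ddx24KD 17 members were called lower and 7 higher, without replicate 2 of Ddx54KD 13 and 3, and without replicate 2 of EGFPKD 2 were called higher.

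**Figure D1:**
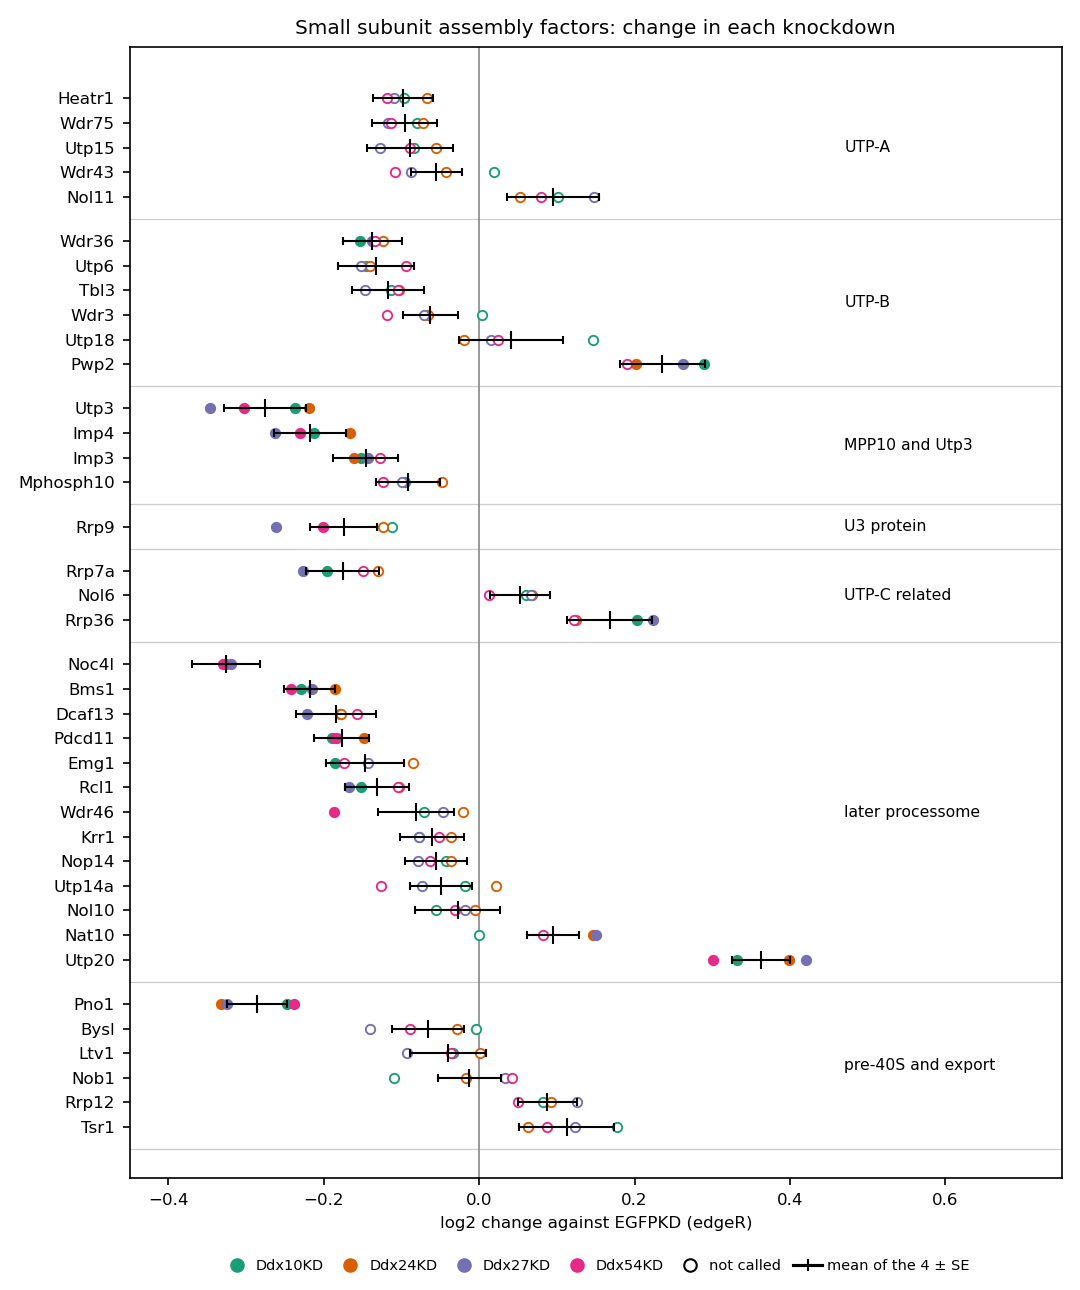
Log2 change against EGFPKD of the 38 assembly factors, ordered within groups by role. Circles are the single knockdowns, filled where the adjusted p was under 0.05, and bars are the mean of the 4 knockdowns ± SE. Most values lie between -0.2 and 0.1, with Noc4l at the low end of the mean and Utp20 at the high end.

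Of the UTP-A proteins, which start the assembly and are tied to transcription of the ribosomal DNA, none of 5 was called in any knockdown or in their mean without the replicate block. Over all genes 38.7% were called in the mean. Heatr1, a large HEAT-repeat scaffold, was at -0.10 ± 0.04 (log2, SE) in the mean of the knockdowns with an adjusted p of 0.0543. Wdr75 was at -0.10, Utp15 at -0.09 and Wdr43 at -0.05, and Nol11 was on the other side of zero at 0.10, with adjusted p of 0.0811 to 0.223 for these 4 genes. With the block Heatr1, Wdr75 and Utp15 were called lower in the mean (adjusted p 0.00570, 0.00734 and 0.0340), as were 25.2% of all genes. In single comparisons the block gave calls for all 5 in Ddx27KD, 4 lower and Nol11 higher, for Wdr43, Wdr75 and Heatr1 in Ddx54KD and for Heatr1 in Ddx10KD, each of them lower. It called 22.6% of all genes lower and 23.3% higher in Ddx27KD, 18.8% lower in Ddx54KD and 21.3% lower in Ddx10KD. Summed over the 5 genes, libraries held 574 to 643 TPM in the knockdowns and 601 to 632 TPM in EGFPKD, so the ranges overlapped.

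UTP-B, a further early complex that binds the 5′ external spacer, held members that moved in opposite directions. Pwp2, a WD-repeat scaffold of UTP-B, had 152, 137 and 148 CPM (counts scaled to library size, here by TMM factors) in Ddx10KD, 145, 123 and 144 CPM in Ddx24KD, 154, 137 and 137 CPM in Ddx27KD and 142, 136 and 130 CPM in Ddx54KD, against 125, 115 and 118 CPM in EGFPKD. Of the 12 knockdown libraries, 11 lay above every control library, the exception being replicate 2 of Ddx24KD. Pwp2 rose by 0.24 ± 0.05 (log2, SE) in the mean of the knockdowns (edgeR adjusted p 0.00270), to 118% of EGFPKD. Wdr36, another WD-repeat protein of the complex, ranged from 160 to 177.6 CPM over the 12 knockdown libraries (median 167) and had 183, 190.5 and 177.5 CPM in EGFPKD. The groups overlapped, with 11 of the 12 knockdown libraries below every control library. Wdr36 fell by 0.14 ± 0.04 (adjusted p 0.00848), a call that was lost without replicate 2 of EGFPKD (0.0622). Utp6, a HAT-repeat protein of the same complex, was also called lower, at -0.13 ± 0.05 with an adjusted p of 0.0398, but in 8 of 15 fits that each left out 1 library this call was lost, with adjusted p of 0.0505 to 0.241. These were the fits without replicates 1 or 3 of EGFPKD, 2 or 3 of Ddx10KD, 1 or 2 of Ddx27KD and 2 or 3 of Ddx54KD. Tbl3 was at -0.12, Wdr3 at -0.06 and Utp18 at 0.04, and none of these 3 WD-repeat members was called, though with the block Tbl3 was lower (adjusted p 0.0122).

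All 4 members around the MPP10 complex, which holds the U3 snoRNA on the pre-rRNA, lay below zero in every knockdown, and 3 of them were called lower in the mean. Over all genes 19.1% were called lower in the mean. Utp3, known in yeast as Sas10 and a partner of Mpp10, had 77.9, 84.7 and 74.6 CPM in Ddx10KD, 78.4, 85.3 and 76.4 CPM in Ddx24KD, 76.1, 76.9 and 66.9 CPM in Ddx27KD and 77.8, 77.9 and 71.0 CPM in Ddx54KD, against 96.9, 94.0 and 88.5 CPM in EGFPKD. Imp4, which contacts the U3 duplex with pre-rRNA in yeast, had 93.4, 89.9 and 87.6 CPM in Ddx10KD, 92.7, 98.8 and 88.2 CPM in Ddx24KD, 93.2, 86.4 and 82.3 CPM in Ddx27KD and 94.3, 87.7 and 85.7 CPM in Ddx54KD, against 104, 101 and 109 CPM in EGFPKD. For both genes every knockdown library lay below every control library, so the groups did not overlap. The share of all genes without such overlap was not counted. Whether members differ from other genes in this was therefore not tested, here or for the other members. Utp3 fell by 0.28 ± 0.05 (log2, SE; adjusted p 0.000608) and Imp4 by 0.22 ± 0.05 (0.00134) in the mean of the knockdowns, which left 82.6% and 86.0% of EGFPKD.

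Imp3, the other U3-binding subunit, was less abundant as counts, with 37.8 to 41.5 CPM over the 12 knockdown libraries (median 39.8), against 42.8, 45.7 and 43.3 CPM in EGFPKD. Its groups did not overlap either, and it fell by 0.15 ± 0.04 (adjusted p 0.0111, or 0.0784 without replicate 2 of EGFPKD). Mphosph10, the scaffold that gives the complex its name, was at -0.09 ± 0.04 with an adjusted p of 0.0904, or 0.0395 with the block. Rrp9, the protein specific to the U3 snoRNP, had 119, 115 and 108 CPM in Ddx10KD, 114, 115 and 110 CPM in Ddx24KD, 110, 102 and 96.1 CPM in Ddx27KD and 107, 111 and 103 CPM in Ddx54KD, against 120, 123 and 126 CPM in EGFPKD. All 12 knockdown libraries were below the controls, and Rrp9 fell by 0.17 ± 0.04 (adjusted p 0.00414).

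The 3 counterparts of the yeast UTP-C complex, which joins the processome separately, went different ways. Rrp7a ranged from 89.1 to 106.5 CPM over the 12 knockdown libraries (median 94.6), against 107.4, 107.2 and 110.7 CPM in EGFPKD. The groups did not overlap, though the highest knockdown library came close to the controls, and Rrp7a fell by 0.18 ± 0.05 (log2, SE; adjusted p 0.00719). Rrp36 had 28.3, 31.1 and 28.8 CPM in Ddx10KD, 28.3, 26.1 and 29.2 CPM in Ddx24KD, 31.4, 30.2 and 27.9 CPM in Ddx27KD and 27.3, 28.4 and 27.8 CPM in Ddx54KD, against 25.2, 24.3 and 27.2 CPM in EGFPKD. Replicate 2 of Ddx24KD was the only knockdown library of Rrp36 inside the control range. Rrp36 rose by 0.17 ± 0.05 (adjusted p 0.0224), which was lost without replicate 1 or 2 of EGFPKD (0.0948 and 0.154). Nol6, the largest of the 3, was at 0.05 ± 0.04 and was not called.

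Among 13 factors that join or act later in the processome, 6 were called lower (46.2%) and 2 higher (15.4%) in the mean of the knockdowns. Over all genes these shares were 19.1% and 19.6%. Noc4l, whose yeast counterpart works as a pair with Nop14, had 128, 120 and 114 CPM in Ddx10KD, 121, 123 and 117 CPM in Ddx24KD, 127, 123 and 112 CPM in Ddx27KD and 126, 122 and 113 CPM in Ddx54KD, against 154, 152 and 147 CPM in EGFPKD. All 12 knockdown libraries lay well below the lowest control, and the 4 knockdowns were alike. Noc4l fell by 0.33 ± 0.04 (log2, SE) in the mean, to 79.8% of EGFPKD (adjusted p 2.72e-05), and by 0.33, 0.33, 0.32 and 0.33 in Ddx10KD, Ddx24KD, Ddx27KD and Ddx54KD. Its partner Nop14 was at -0.06 ± 0.04 with an adjusted p of 0.290.

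Bms1, a GTPase of the processome, had 207, 196 and 196 CPM in Ddx10KD, 208, 206 and 204 CPM in Ddx24KD, 196, 199 and 210 CPM in Ddx27KD and 202, 197 and 196 CPM in Ddx54KD, against 235, 238 and 230 CPM in EGFPKD. The groups did not overlap, and Bms1 fell by 0.22 ± 0.03 (adjusted p 7.31e-05). Rcl1, the cyclase-like protein that Bms1 carries into the particle, ranged from 85.4 to 96.1 CPM over the knockdown libraries (median 89.0), against 101, 97.9 and 98.2 CPM in EGFPKD. Again no knockdown library reached the controls, and Rcl1 fell by 0.13 ± 0.04 (adjusted p 0.0185, lost without replicate 1 or 3 of EGFPKD at 0.0872 and 0.0529).

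Pdcd11, known in yeast as Rrp5 and needed there for both subunits, had 295, 275 and 279 CPM in Ddx10KD, 290, 297 and 286 CPM in Ddx24KD, 294, 277 and 283 CPM in Ddx27KD and 297, 282 and 273 CPM in Ddx54KD, against 327, 314 and 328 CPM in EGFPKD. Every knockdown library was below every control, by a narrow gap, and Pdcd11 fell by 0.18 ± 0.04 (adjusted p 0.000900). Dcaf13, the counterpart of yeast Sof1, fell by 0.18 ± 0.05 (adjusted p 0.00967, or 0.0638 without replicate 1 of EGFPKD). Emg1, which methylates a pseudouridine of 18S rRNA, fell by 0.15 ± 0.05 (0.0282, or 0.0903 and 0.113 without replicates 1 and 3 of EGFPKD). The 12 knockdown libraries of Emg1 ran from 104 to 128 CPM (median 116), and the control libraries had 128, 124 and 129 CPM, so 1 knockdown library, replicate 2 of Ddx24KD, lay within the control range.

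The largest increase among the members was in Utp20, a very long HEAT-repeat protein of the processome. It had 490, 478 and 517 CPM in Ddx10KD, 533, 488 and 535 CPM in Ddx24KD, 529, 538 and 513 CPM in Ddx27KD and 496, 479 and 480 CPM in Ddx54KD, against 401, 388 and 391 CPM in EGFPKD. The lowest knockdown library stood far above the highest control. Utp20 rose by 0.36 ± 0.04 (log2, SE) in the mean of the knockdowns, to 129% of EGFPKD (adjusted p 1.72e-06), and by 0.33 ± 0.05, 0.40 ± 0.05, 0.42 ± 0.05 and 0.30 ± 0.05 in Ddx10KD, Ddx24KD, Ddx27KD and Ddx54KD.

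Nat10, which acetylates cytidines of 18S rRNA, had 159, 153 and 158 CPM in Ddx10KD, 172, 172 and 175 CPM in Ddx24KD, 177, 173 and 171 CPM in Ddx27KD and 168, 164 and 165 CPM in Ddx54KD, against 163, 158 and 148 CPM in EGFPKD. Ddx10KD libraries lay inside the control range, and the 9 libraries of the other knockdowns lay above it. Nat10 rose by 0.10 ± 0.03 in the mean (adjusted p 0.0359), which was lost in 8 of 15 fits that left out 1 library, with adjusted p of 0.0526 to 0.273. Those were the fits without replicates 2 or 3 of EGFPKD, 1 or 3 of Ddx10KD, 1 of Ddx24KD, 1 or 2 of Ddx27KD and 2 of Ddx54KD. The other later factors were not called in the mean without the block, namely Wdr46, the counterpart of yeast Utp7 (-0.08, adjusted p 0.204, or 0.0397 with the block), the KH-domain protein Krr1 (-0.06), Nop14, the helicase cofactor Utp14a (-0.05) and Nol10, the counterpart of yeast Enp2 (-0.03).

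**Figure D2:**
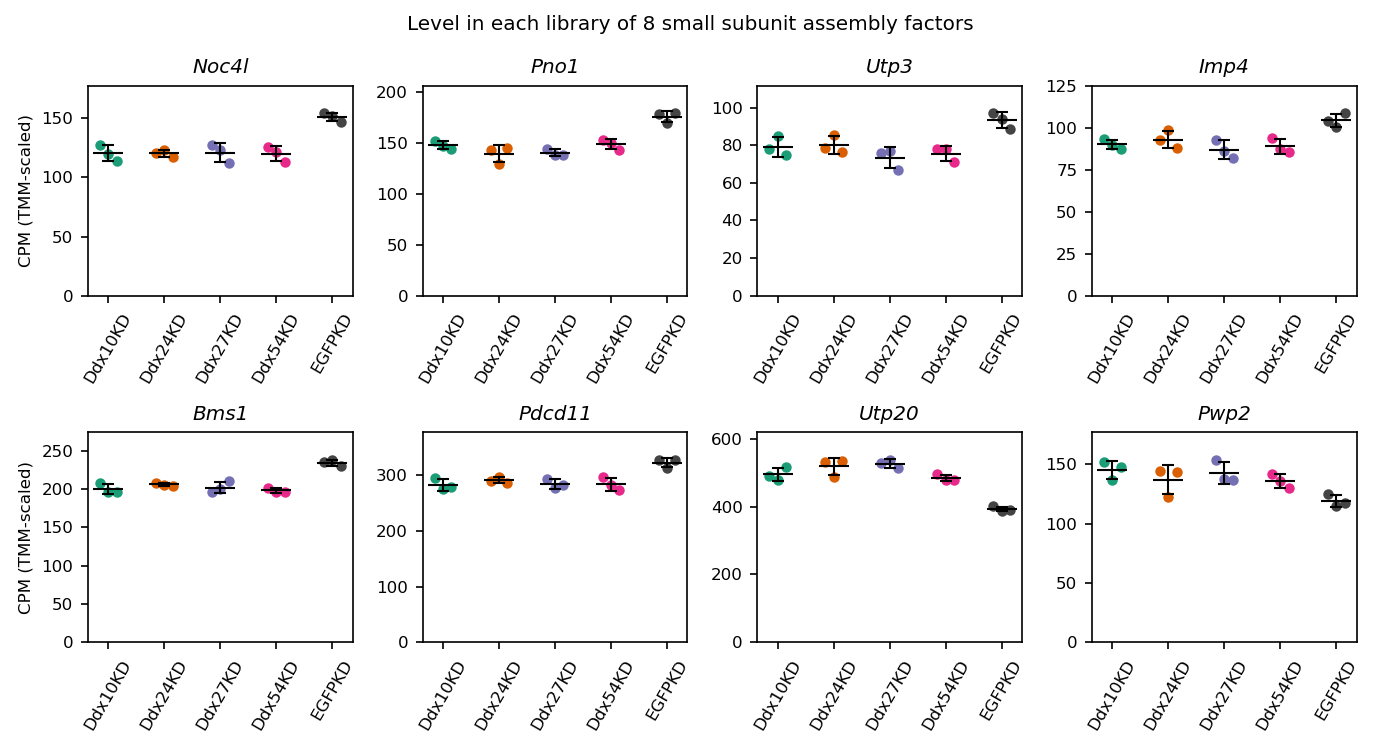
TMM-scaled CPM in each library for 8 assembly factors, with the mean and SD of each group of 3. Noc4l, Pno1, Utp3, Imp4, Bms1 and Pdcd11 are lower in all 12 knockdown libraries than in the 3 EGFPKD libraries, Utp20 is higher in all 12, and Pwp2 is higher in 11 of them. The share of all genes set apart in this way was not counted.

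Among the 6 pre-40S and export factors, Pno1 alone (16.7%) was called in the mean without the replicate block. Over all genes 38.7% were called there, 19.1% lower and 19.6% higher. Pno1, a KH-domain protein that holds the 3′ end of 18S rRNA and positions the nuclease Nob1, had 152, 147 and 144 CPM in Ddx10KD, 143, 130 and 145 CPM in Ddx24KD, 144, 138 and 138 CPM in Ddx27KD and 152, 150 and 143 CPM in Ddx54KD, against 178, 169 and 179 CPM in EGFPKD. No knockdown library reached the controls. Pno1 fell by 0.29 ± 0.04 (log2, SE) in the mean of the knockdowns, to 82.0% of EGFPKD (adjusted p 2.75e-05), and by 0.25, 0.33, 0.32 and 0.24 in Ddx10KD, Ddx24KD, Ddx27KD and Ddx54KD. The endonuclease Nob1 was at -0.01 ± 0.04, and Bysl and Ltv1, which leave the particle during its maturation, were at -0.07 and -0.04. The GTPase-like Tsr1 was at 0.11 ± 0.06 and the export factor Rrp12 at 0.09 ± 0.04, with adjusted p of 0.158 and 0.0796. With the block both were called higher (adjusted p 0.00658 for Tsr1 and 0.00769 for Rrp12), as were 25.9% of all genes.

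Promoter windows are shown for members at both ends of the changes, namely the 2 lowest and the 2 highest called members in the mean of the knockdowns whose window holds no annotated exon. RefSeq windows (GRCm38.p6) of 250 bases upstream of the gene start were available for 32 of 38 members, and 5 short motifs, none of which contains another, were searched on both strands. CCGGAAG, a core bound by ETS factors, was in 12 of 32 member windows (37.5%) and in 12.4% of the windows of genes tested. CCAAT was in 17 member windows (53.1%) and in 35.4% of those of genes tested, and CACGTG, the E-box that MYC family proteins bind, was in 5 (15.6%) and 8.19%. Over all 32851 windows the shares were 6.91% for CCGGAAG, 33.8% for CCAAT and 6.02% for CACGTG. AAGATGGCG, a YY1 core, was in 1 member window (Imp4), in 1.07% of those of genes tested and in 0.606% of all, and the palindromic NRF1 core was in no member window, in 1.56% of those of genes tested and in 0.782% of all. Median GC content was 57.4% over member windows, 59.6% over those of genes tested and 52.4% over all. A match is a string of letters and was not tested as a binding site. Windows of Utp3 (chr5:88554212-88554461, forward strand), Pno1 (chr11:17211590-17211839, reverse strand), Pwp2 (chr10:78185150-78185399, reverse strand) and Utp20 (chr10:88826815-88827064, reverse strand) follow, each 5′ to 3′ on the strand of its gene, with CCGGAAG or CCAAT in capitals.
Utp3: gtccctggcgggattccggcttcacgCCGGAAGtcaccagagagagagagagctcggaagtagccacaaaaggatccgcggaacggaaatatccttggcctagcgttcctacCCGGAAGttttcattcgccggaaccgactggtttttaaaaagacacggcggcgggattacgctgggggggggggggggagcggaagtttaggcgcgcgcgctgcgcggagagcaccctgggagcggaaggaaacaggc
Pno1: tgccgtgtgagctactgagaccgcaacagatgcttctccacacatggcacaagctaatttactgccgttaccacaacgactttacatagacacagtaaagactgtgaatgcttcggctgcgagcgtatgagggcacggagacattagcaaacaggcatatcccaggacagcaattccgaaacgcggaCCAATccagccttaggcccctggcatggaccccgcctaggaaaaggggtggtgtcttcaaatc
Pwp2: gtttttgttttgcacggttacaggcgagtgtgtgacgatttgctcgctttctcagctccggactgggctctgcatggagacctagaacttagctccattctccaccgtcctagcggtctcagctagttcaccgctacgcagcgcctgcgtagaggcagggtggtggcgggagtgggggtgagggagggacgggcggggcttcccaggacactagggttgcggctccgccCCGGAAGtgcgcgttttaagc
Utp20: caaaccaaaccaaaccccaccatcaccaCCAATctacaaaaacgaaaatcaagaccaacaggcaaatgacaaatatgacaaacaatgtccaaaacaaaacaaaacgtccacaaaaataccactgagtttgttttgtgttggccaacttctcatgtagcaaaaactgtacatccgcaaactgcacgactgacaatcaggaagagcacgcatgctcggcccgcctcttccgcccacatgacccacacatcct
Utp3, which fell, holds CCGGAAG at positions -224 and -138 from the gene start, and Pwp2, which rose, holds it at -21. Pno1, which fell, holds CCAAT at -63, and Utp20, which rose, holds it at -222. Each of these 2 motifs was thus present in a member that fell and in one that rose.

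Each knockdown asked the same question of 1 helicase at a time. In Ddx10KD, 12 members were called lower and 3 higher, where 14.5% of all genes were called lower and 16.5% higher (31% in all), beside 31.6% and 7.89% of the members. The 3 higher were Utp20 (0.33), Pwp2 (0.29) and Rrp36 (0.20), and the lower values ran from Noc4l at -0.33 to Wdr36, Imp3 and Rcl1 at -0.15. With the replicate block, 16 members were lower and 6 higher, where 21.3% of all genes were lower and 22.8% higher. Without replicates 1, 2 or 3 of EGFPKD 6, 7 and 6 members were lower, and without replicates 2 or 3 of Ddx10KD 6 and 4. The calls lost in at least 1 of these fits were those of Wdr36, Imp3, Imp4, Utp3, Rrp7a, Rrp36, Rcl1, Dcaf13 and Emg1, with adjusted p of 0.0509 to 0.190.

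Ddx24KD had 7 members called lower and 3 higher, with 13.1% of all genes lower and 15% higher (28.1% in all), beside 18.4% and 7.89% of the members. Pno1 (-0.33), Noc4l (-0.33), Utp3 (-0.22), Bms1 (-0.19), Imp4 (-0.17), Imp3 (-0.16) and Pdcd11 (-0.15) were lower, and Utp20 (0.40), Pwp2 (0.20) and Nat10 (0.15) higher. Under the block 12 members were lower and 4 higher, beside 19.9% of all genes lower and 21.3% higher. Leaving out replicates 1 or 3 of EGFPKD gave 4 members lower, and leaving out replicates 1 or 3 of Ddx24KD gave 3. The higher calls dropped to 1, Utp20, without replicate 3 of EGFPKD and without replicates 1 or 3 of Ddx24KD. Without replicate 2 of Ddx24KD, 1 of the libraries farthest out on the second component, 8 were lower and 4 higher. Calls of Pwp2, Imp3, Imp4, Utp3, Nat10 and Pdcd11 were lost in at least 1 of these fits or without replicate 2 of EGFPKD, at adjusted p of 0.0501 to 0.177.

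Ddx27KD had 12 members lower and 4 higher, with 16.1% of all genes lower and 17.3% higher (33.4% in all), beside 31.6% and 10.5% of the members. Utp3 stood lowest at -0.35 ± 0.07 (log2, SE), followed by Pno1 and Noc4l at -0.32 and by Imp4 and Rrp9 at -0.26, and the 4 higher members were Utp20 (0.42), Pwp2 (0.26), Rrp36 (0.22) and Nat10 (0.15). With the block 20 members were lower and 7 higher, and of all genes 22.6% were lower and 23.3% higher. Without replicate 1 of Ddx27KD the higher calls dropped to 1. Over the 6 fits that left out 1 library, 8 to 12 members were lower, and the calls lost in at least 1 of them were those of Wdr36, Pwp2, Imp3, Rrp36, Rcl1, Dcaf13 and Nat10 (adjusted p 0.0514 to 0.163).

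In Ddx54KD 8 members were called lower and 1, Utp20, higher, with 11.2% of all genes lower and 13.1% higher (24.3% in all), beside 21.1% and 2.63% of the members. The 8 were Noc4l (-0.33), Utp3 (-0.30), Bms1 (-0.24), Pno1 (-0.24), Imp4 (-0.23), Rrp9 (-0.20), Pdcd11 (-0.19) and Wdr46 (-0.19). Wdr46 had 113, 101 and 97.0 CPM in Ddx54KD, against 118, 118 and 118 CPM in EGFPKD, and 3 of the 9 libraries of the other knockdowns lay above the controls. Its call (adjusted p 0.0377) was lost in 5 of 6 fits, without any one of the EGFPKD replicates or replicates 2 or 3 of Ddx54KD (0.0796 to 0.175). Without replicate 3 of EGFPKD the call of Rrp9 was lost (0.0538), and without replicate 3 of Ddx54KD so were those of Imp4 (0.0521) and Rrp9 (0.0685). With the block 19 members were lower and 2 higher, where of all genes 18.8% were lower and 20% higher. Without replicate 1 of Ddx54KD 15 were lower, without replicate 3 of Ddx54KD 5, and without replicate 2 of Ddx54KD 8 were lower and 1 higher.

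Across the 4 comparisons, which share the EGFPKD libraries, 7 members were called without the block in each one (Imp4, Utp3, Utp20, Noc4l, Bms1, Pdcd11 and Pno1) and 20 in none. The shares of all genes called in all 4 or in none were not counted. Whether the members differ from other genes in this was therefore not tested. The calls of Utp20, Noc4l, Bms1 and Pno1 held in every fit that left out 1 library, in each single comparison and in the mean.

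Between the knockdowns themselves few member differences passed any test. In the test of any difference among the 4 knockdowns, which uses no control, edgeR called none of the 38 members, and 0.495% of all genes were called. An unadjusted p under 0.05 was reached by 5 members (Nat10, Nob1, Rrp9, Utp14a and Wdr43), and the lowest adjusted p was 0.243, for Nat10. The shares of all genes at an unadjusted p under 0.05 were not counted, here or for the pairs below. DESeq2 called Nat10 (0.0422) and 361 genes in all, and limma-voom called no member, with 5 at an unadjusted p under 0.05. With the replicate block edgeR called Nat10, Utp14a and Wdr46 (7.89% of the members) and 11.2% of all genes. Over the 6 pairs of knockdowns, 228 member differences had a median size of 0.04 on the log2 scale beside a median SE of 0.05, and none was called by edgeR, with 16 at an unadjusted p under 0.05. Without replicate 2 of Ddx24KD or replicate 2 of Ddx54KD, too, edgeR called no member in either test. The share of all genes called in a pair was 0.412% for Ddx24KD against Ddx10KD, 0.223% for Ddx27KD against Ddx10KD and 1.43% for Ddx54KD against Ddx10KD. It was 0.0209% for Ddx27KD against Ddx24KD, 0.0558% for Ddx54KD against Ddx24KD and 0.014% for Ddx54KD against Ddx27KD.

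The extremes of these pair differences were Utp18, at -0.17 ± 0.08 in Ddx24KD against Ddx10KD, and Nob1, at 0.15 ± 0.05 in Ddx54KD against Ddx10KD (adjusted p 0.506 and 0.168). Utp18 had 113, 91.9 and 124 CPM in Ddx24KD, against 117, 121 and 131 CPM in Ddx10KD. Its lowest value was in replicate 2 of Ddx24KD, a library far out on the second component. Nat10 was higher by 0.15 ± 0.04 in both Ddx24KD and Ddx27KD against Ddx10KD, at adjusted p of 0.179 and 0.182 with edgeR and of 0.0489 and 0.0407 with DESeq2. The share of all genes that DESeq2 called in these pairs was not counted. With the block 7 of the 228 differences were called, 2 of them these of Nat10 (0.0216 and 0.0194). The others were Bysl in Ddx27KD against Ddx10KD (-0.14), Nob1 (0.15), Wdr3 (-0.12) and Wdr43 (-0.13) in Ddx54KD against Ddx10KD, and Wdr46 in Ddx54KD against Ddx24KD (-0.17). The block called 5.41% of all genes in Ddx24KD against Ddx10KD, 5.34% in Ddx27KD against Ddx10KD, 10.6% in Ddx54KD against Ddx10KD, 0.0558% in Ddx27KD against Ddx24KD, 1.74% in Ddx54KD against Ddx24KD and 2.62% in Ddx54KD against Ddx27KD.

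Read per length, the members were all well expressed, within a narrow band of levels. Their mean TPM in EGFPKD ran from 44.8 to 258, a 5.76-fold span with a median of 109 TPM, where the median of all tested genes was 13.4 TPM. Emg1 had the highest level, with 231.7 to 244.4 TPM as the means of the 4 knockdowns and 258 ± 8.80 TPM (SD, n = 3) in EGFPKD. Pno1 came next, at 186 to 204 TPM in the knockdown means and 232 ± 10.5 TPM in EGFPKD, and then Wdr43, at 170 to 190 TPM in the knockdown means and 181 ± 1.54 TPM in EGFPKD. The lowest levels in EGFPKD were those of Krr1 (59.0 ± 1.93 TPM), Utp15 (50.9 ± 3.14 TPM) and Rrp36 (44.8 ± 3.04 TPM). In the order of EGFPKD levels, 29 of 37 neighbouring pairs overlapped in their 3 libraries, so most neighbours did not differ beyond their spread.

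Summed over the 38 members, the level was 4248 ± 111 TPM in Ddx10KD, 4134 ± 121 TPM in Ddx24KD, 4101 ± 72.9 TPM in Ddx27KD and 4071 ± 171 TPM in Ddx54KD, against 4291 ± 114 TPM in EGFPKD (SD, n = 3 each). The ranges of all 5 groups overlapped, and the sum was not tested. Expected counts per member and library ran from 651 to 14790, and the coefficient of variation over 3 libraries had a median of 4.13%.

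**Figure D3:**
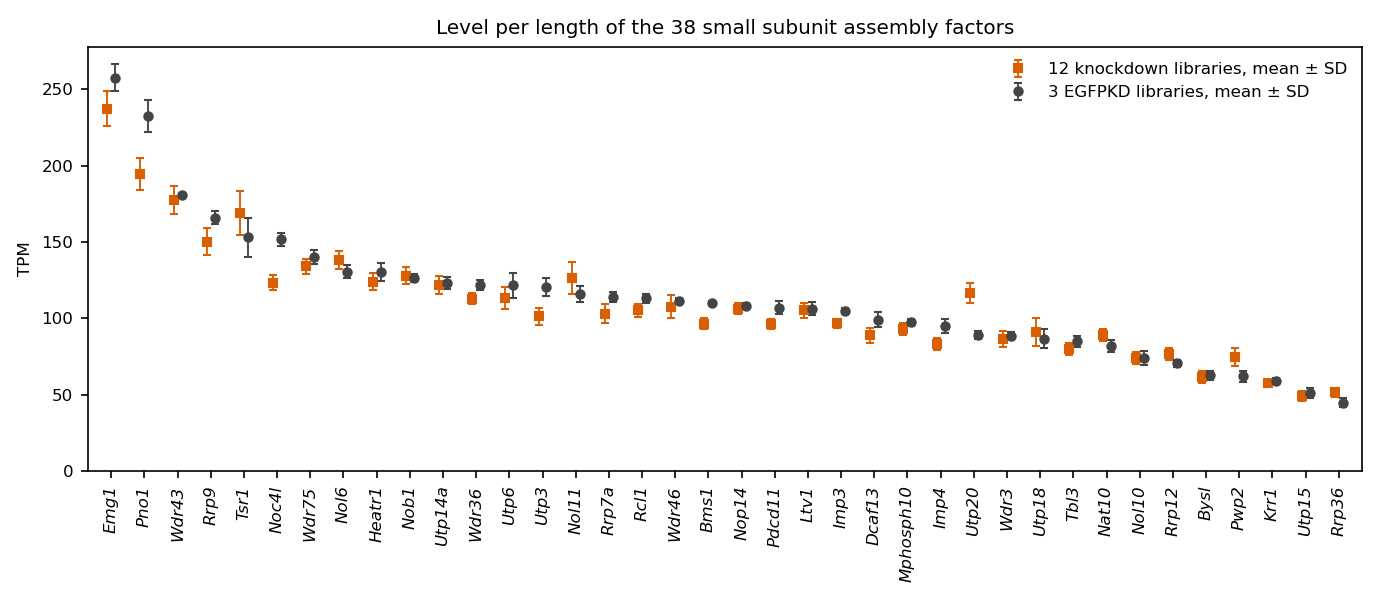
Mean TPM ± SD of each assembly factor over the 12 knockdown libraries of 4 groups (squares) and the 3 EGFPKD libraries (circles), ordered by the EGFPKD level from Emg1 at 258 TPM to Rrp36 at 44.8 TPM. Pno1, Noc4l and Utp3 sit below their control level and Utp20 above its own.

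Other genes of ribosome synthesis were read from lists of textbook members. In the mean of the knockdowns without the block, 19.1% of all genes were called lower and 19.6% higher. Of 24 further small subunit factors 12 were lower and none higher in this comparison, with a median log2 change of -0.11. Aatf, of the ANN complex, was at -0.33 ± 0.04 and Utp11l, a processome protein, at -0.29 ± 0.05. Of 12 core snoRNP and snoRNP assembly proteins 6 were lower and none higher (median -0.12), Nop10, of the pseudouridylation snoRNPs, standing lowest at -0.45 ± 0.04, beside Nhp2l1, which binds U3 and other snoRNAs, at -0.26 ± 0.05. Of 53 large subunit assembly factors 21 were lower and 2 higher (median -0.09), so the small subunit members had a median close to that of the large subunit ones. Small subunit ribosomal proteins went the other way in the mean, with 10 of 32 higher and none lower (median 0.08, 28 above zero). In Ddx10KD 2 were higher and 2 lower (median 0.02), with 16.5% and 14.5% of all genes. Ddx24KD had 10 higher (median 0.13, 15% of all genes), Ddx27KD 5 (0.10, 17.3%) and Ddx54KD 3 (0.10, 13.1%), with none lower. Among the knockdowns none of the 32 differed without the block and 11 (34.4%) with it, beside 0.495% and 11.2% of all genes. With the replicate block, where 25.2% of all genes were lower and 25.9% higher, 13 of the further small subunit factors were lower and 1 higher. The snoRNP list then had 8 lower and none higher, the large subunit factors 28 lower and 4 higher, and the small subunit ribosomal proteins 22 higher and none lower.

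**Figure D4:**
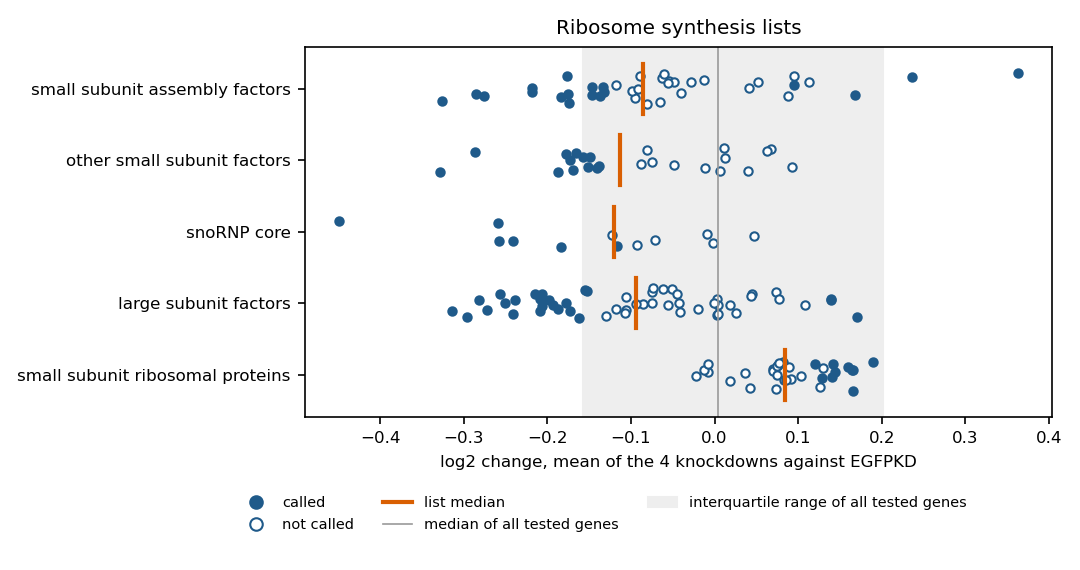
Log2 change in the mean of the 4 knockdowns against EGFPKD for each gene of 5 lists, filled where called, with list medians as vertical bars. The shaded band is the interquartile range of all 14335 tested genes, from -0.16 to 0.20. Medians of the assembly factor and snoRNP lists lie between -0.12 and -0.09, and that of small subunit ribosomal proteins lies at 0.08.

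The authors' deposited tables give a ratio and a posterior probability of differential expression for each knockdown. At a posterior probability of at least 0.95, the authors' deposited tables held 11 members lower and 2 higher in Ddx10KD, 10 lower and 1 higher in Ddx24KD, 14 lower and 6 higher in Ddx27KD and 9 lower and 1 higher in Ddx54KD. The shares of all listed genes at that probability in the authors' deposited tables were 17.1%, 12.4%, 18.3% and 13.1% in the same order. Gene by gene these calls and those of edgeR differed in both directions. In the authors' deposited tables Pwp2 and Nat10 in Ddx24KD had 0.243 and 0.0894, and Rcl1 in Ddx27KD had 0.000713, though edgeR called them. Tbl3 and Rrp9 in Ddx24KD had 0.999865 and 0.999932 in the authors' deposited table, and edgeR did not call them. Member log2 ratios in the authors' deposited tables were within 0.0069 of the edgeR values in Ddx10KD, Ddx27KD and Ddx54KD. In the authors' deposited table for Ddx24KD they differed by up to 0.059, and 79.4% of all genes there were within 0.1 of the edgeR value, against 99.5% to 99.6% in the other 3 tables.

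The genome around the members bears on how their reads were counted. Coordinates are from GENCODE M21 on GRCm38 (mm10). Noc4l lies at chr5:110648418-110653417 on the reverse strand, Pno1 at chr11:17203198-17211568 on the reverse strand, Bms1 at chr6:118383381-118419474 on the reverse strand and Utp20 at chr10:88746607-88826804 on the reverse strand. For 13 members, exons overlap those of a gene on the other strand by at least 100 bases. Among them are Tbl3 with Noxo1 (2122 bases), Tsr1 with Srr (1240 bases) and Rrp7a with Serhl (678 bases). Pdcd11 overlaps Calhm2 by 436 bases, and Bysl overlaps Ccnd3 by 361 bases. Whether counting used strand is not given in the sources used here, so reads of such pairs cannot be told apart. Noxo1 was at 0.76 and Calhm2 at 0.88 in the mean of the knockdowns, while Tbl3 was at -0.12 and Pdcd11 at -0.18. Levels in EGFPKD were 2.53 TPM for Noxo1 beside 84.9 TPM for Tbl3, and 2.32 TPM for Calhm2 beside 107 TPM for Pdcd11. Srr, at 2.57 TPM beside 153 TPM for Tsr1, was at 0.29, and Tsr1 was at 0.11. Ccnd3 was the more abundant gene of its pair, at 354 TPM beside 62.8 TPM for Bysl. Ccnd3 fell by 0.65 ± 0.08 (log2, SE; edgeR adjusted p 1.51e-05), and Bysl was at -0.07. The part of Ccnd3 reads in the Bysl counts was not tested. A pseudogene, Wdr46-ps, is annotated for Wdr46, so its reads may be split.

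Head to head with another protein-coding gene, with starts at most 1000 bases apart, lie 12 members. In the mean of the knockdowns 5 of these were called lower and none higher. Over all 38 members 36.8% were lower and 10.5% higher, and over all genes 19.1% and 19.6%. Of the 12 head-to-head partners 2 were lower and 2 higher, and 2 pairs were lower on both sides. These were Emg1 with Phb2, a mitochondrial prohibitin (-0.28 ± 0.05), and Dcaf13 with Slc25a32, a mitochondrial folate carrier (-0.25 ± 0.08). Noc4l shares its start region with the helicase gene Ddx51, 34 bases away, which was at -0.13 ± 0.06 and was not called (adjusted p 0.0819). For Imp4 the partner Ccdc115 was at 0.10 ± 0.06, and for Mphosph10 the partner Mcee rose by 0.55 ± 0.12 (adjusted p 0.00133).

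The deposited gene lengths, which the authors' software weights by transcript abundance, could vary for only 2 members, since 36 of 38 have 1 transcript in the files. Nol11 averaged 3143 to 3146 bases in the knockdowns and 3146 ± 2.91 bases in EGFPKD. Wdr36 averaged 3050.0 to 3059 bases in the knockdowns and 3056 ± 6.16 bases in EGFPKD (SD, n = 3). Both genes stayed within about the spread between replicates, so no shift between their transcripts was seen.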

How the data were processed

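Poly(A) RNA of 15 libraries was analysed from the deposited values. Per the submitters' processing notes, the authors used RSEM and mm10. The sources used here give no version, aligner, annotation or strand setting. Per the file headers, the authors deposited expected counts per gene (estimated reads, not scaled), TPM, FPKM and abundance-weighted lengths for each library. The deposited comparison tables hold ratios of knockdown to control and posterior probabilities, which are scores between 0 and 1, per the file headers.

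Expected counts were rounded, filtered with filterByExpr (14335 of 23845 genes kept) and scaled by TMM. One edgeR 4.0.16 quasi-likelihood fit of all 15 libraries (R 4.3.3) gave each knockdown against EGFPKD, the mean of the 4 knockdowns against EGFPKD, the difference among the knockdowns and their 6 pairs, with Benjamini-Hochberg adjustment over all genes. The script was tested on simulated counts. Log2 changes are fitted values with SE, and levels are TMM-scaled CPM or the deposited TPM. The labels call the replicates biological, and their counts differed by more than counting noise (chi-square per gene 12.7 to 25.9 over 2 degrees of freedom).

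Replicate numbers were checked for pairing. After removal of group means, same-number libraries of different groups correlated at 0.106 to 0.335 in all 30 pairs (each above 0.1), those of other numbers lay between -0.249 and 0.053, and each of the 15 libraries was most like those of its own number. The numbers therefore pair the libraries, on the evidence of these data, and a second fit held replicate number as a block. Calls in the text and figures are from the fit without the block, which leaves the pairing out, unless another fit is named. That fit called 18 members in the mean of the knockdowns, and the fit with the block called 26. Further settings tried were size factors by RLE or upper quartile, DESeq2 1.42.0, limma-voom (limma 3.58.1), no count filter, 10 CPM in at least 3 libraries, fits of the compared groups alone, an adjusted p under 0.01 and each library left out in turn; those for the pairs of knockdowns were chosen after seeing the data. The members, role groups and other lists were chosen with earlier results of these data known. Members given by library are up to 5 each way with the smallest p in the mean of the knockdowns, up to 3 more each way in each single comparison, and the 3 highest and lowest by TPM; the neighbouring genes, motifs and remaining members were named after their values were seen. Promoter windows are RefSeq's, and those shown belong to the lowest and highest called members whose window holds no annotated exon. No protein sequence was used here.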

Additional observations from a re-analysis of the deposited data

How the results depend on the processing

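Of 68 member calls against EGFPKD, none changed sign under any alternative. None was lost with RLE factors, DESeq2, limma-voom or the replicate block, 5 were lost with upper-quartile factors, 9 without a count filter, 3 with 10 CPM, 29 at an adjusted p under 0.01 and 8 of 50 in fits of the compared groups alone. No scaling moved the median of all genes by over 0.1. The block ended no call. It raised the members called higher to 6 in Ddx10KD and 6 in the mean, those lower and higher to 20 and 7 in Ddx27KD and to 19 and 2 in Ddx54KD (5570 genes in all there), those lower to 12 in Ddx24KD, and those that differed among the knockdowns to 3 (1603 genes) and in pairs to 7. DESeq2 called 1 member and 361 genes among the knockdowns and 2 values in pairs. At an adjusted p under 0.01, members called lower were 4 in Ddx10KD and 3 in Ddx24KD, members called higher were 1 in Ddx24KD, 2 in Ddx27KD and 2 in the mean, and genes called were 2673, 2310, 3039 and 1860 in Ddx10KD, Ddx24KD, Ddx27KD and Ddx54KD and 26 among the knockdowns. Fits of the compared groups alone gave 4 members lower and 1 higher in Ddx24KD. In Ddx54KD 2 members were higher with upper-quartile factors, with 10 CPM and in the fit alone.

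With each library left out in turn, members called lower were 4 to 12 in Ddx10KD, 3 to 8 in Ddx24KD, 8 to 12 in Ddx27KD, 5 to 15 in Ddx54KD and 10 to 17 in the mean. Members called higher were 2 to 3, 1 to 4, 1 to 4, 1 to 1 and 2 to 7. Genes called were 3193 to 3974, 2866 to 4307, 3880 to 4201, 2232 to 3469 and 4337 to 5998, and among the knockdowns 22 to 145 genes and no member. In these fits 112 of 570 member values lost their call, and 35 of the 68 kept it throughout. The order of levels by FPKM was that by TPM for 38 of 38 members. Apart from thresholds and numbers of libraries, the cause of these shifts was not tested. Members had 651 or more counts in each library, and the part of counting error in the spread between libraries was not separated.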
